A study of Mus musculus with 23 samples.

Results

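Cells of the thymus live or die by the balance of the Bcl2 family, and 10 of its genes were followed here among the 24475 genes of the table. They were taken by name: the survival genes Bcl2, Bcl2l1 and Mcl1, the effectors Bax and Bak1, and the BH3-only genes Bcl2l11, Bbc3, Pmaip1, Bad and Bid. Survival proteins hold the effectors in check at the mitochondrial membrane, BH3-only proteins relieve that check or switch the effectors on, and active effectors open the membrane so that cytochrome c escapes and caspases are activated. In the thymus this machinery removes thymocytes that fail selection, with Bcl2l1 known for keeping double-positive thymocytes alive and Bcl2l11 for the death of self-reactive ones.

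RNA sequencing covered 23 samples in 3 groups. Normal thymus came from 6 C57BL/6 mice. T-cell acute lymphoblastic leukemia (T-ALL) came from the spleens of BALB/c Rag2-/-Il2rg-/- hosts, young adult mice without lymphocytes of their own. Each host had received a newborn thymus lobe under the kidney capsule. The lobe was wild-type B6.Ly5.1 for 14 samples (WT T-ALL) and Notch3 knockout for 3 (Notch3 KO T-ALL). The knockout allele was made by placing a β-galactosidase gene in the first coding exon, and the strain of these donors was not given. All 17 T-ALL samples thus share the host strain, the host deletions, the grafting and the spleen. None of these is shared with thymus, so that leukemia, tissue and strain cannot be told apart in either comparison with thymus. The study describes the spleen cells used for exome sequencing as unfractionated and, on average, mostly leukemic, and gives no such figure for the RNA samples. The RNA samples still held host cells, as the markers below show. In such bulk samples fewer cells of a type and less RNA per cell cannot be told apart. The ages at which the spleens and the control thymuses were taken were not given in the sources used here.

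Values were deposited as log2(scaled RPKM + 1), called log2 values below; RPKM is reads per kilobase of gene and per sequencing depth, here scaled so that the 75th percentile of genes is the same in every sample. Between 10154 and 11011 genes reached a scaled RPKM of 1 in a sample. The study's methods give 1 approximate number of reads for all libraries and read counts are not in the table used here, which leaves the depth of single samples unknown. Erythroid markers, whose summed scaled RPKM was 0.207 to 2.44 in thymus, reached 39.2 to 746 among WT T-ALL samples and 385 to 2030 among Notch3 KO samples, and all 8 of 8 rose in both comparisons with thymus. Neutrophil markers ran from 57.1 to 530, from 636 to 84300 and from 202 to 7560 in the same order. Markers of double-positive thymocytes fell in 7 of 8 cases in both comparisons, with thymus sums of 3090 to 4230, WT T-ALL sums of 106 to 839 and Notch3 KO sums of 192 to 1160. Summed T cell markers were at 2940 to 3720 (thymus), 1550 to 3460 (WT T-ALL) and 2080 to 2620 (Notch3 KO), and all 8 of these genes reached a scaled RPKM of 1 in every sample. Against thymus, 4 of 8 fell in WT T-ALL (median difference -0.38) and 2 of 8 in Notch3 KO T-ALL (-0.44), and 0 rose. Neutrophil markers were called higher in 7 of 7 cases in WT T-ALL and 3 of 7 in Notch3 KO T-ALL against thymus. Macrophage markers rose in 7 of 8 and 8 of 8 cases, and megakaryocyte markers in 5 of 5 in each comparison. B cell markers fell in 4 of 4 tested in each. Among all genes 29.3% and 21.2% rose, and 22.3% and 16.3% fell. The part of these other cells in the results below was not tested. The samples also fell into a pair of sets by the levels of Srsf4, Sco2 and Hnrnph3, which no label names: set A held thymus 5 and 6, WT T-ALL 3, 4, 5 and 7 and all 3 Notch3 KO T-ALL, and set B held the other 4 thymus and 10 WT T-ALL samples. Notch3 itself was at log2 values of 2.59, 3.22 and 3.74 in the 3 knockout samples, against 3.17 to 5.78 for WT T-ALL and 2.62 to 4.29 for thymus. The 2 T-ALL groups overlapped in this value, which is 1 figure for the whole gene and not for the exon that carries the insertion.

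In WT T-ALL the survival genes fell and the death genes parted. Bcl2, Bcl2l1 and Mcl1 were all lower than in thymus, Bax and Bid were higher, and Bbc3 was lower, so that 6 of the 10 genes passed an adjusted p of 0.05 (limma, all genes in the fit), against 51.6% of all 11919 genes tested. By direction, 2 of 10 rose against 29.3% of all genes, and 4 of 10 fell against 22.3%. The share called is near that of all genes, so the count is no result about the family as such. The median difference was -0.21 over the 10 genes and 0.08 over all genes. All 10 passed the filter on low values. On GRCm38.p6 (GENCODE M21) the 6 called genes span chr1:106538178-106714274 (Bcl2, minus strand), chr2:152780668-152831728 (Bcl2l1, minus), chr3:95658788-95663176 (Mcl1, plus), chr7:45461697-45466898 (Bax, minus), chr7:16308393-16318205 (Bbc3, plus) and chr6:120891930-120916853 (Bid, minus). Each T-ALL sample is an individual mouse in the study's account, and the p-values measure the spread between these samples.

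The promoters of Bcl2l1, Bax and Bid are shown because these are the 3 genes whose WT T-ALL and thymus samples did not overlap. Each is the 250 bases before a RefSeq start on GRCm38.p6, the reference build that carries the name mm10 in the labels, read on the gene's own strand. The letters searched were the E-box CACGTG, which Myc and Max bind, TGGGAA, the core that the Notch partner Rbpj recognises, AGGTCA, the core of nuclear receptor sites such as that of RORγt, and CAGCTG, the E-box of E proteins and Tal1, and capitals mark each match. The windows are chr2:152831729-152831978 for Bcl2l1 (the outermost of 3 annotated starts), chr7:45466899-45467148 for Bax and chr6:120916825-120917074 for Bid, all on the minus strand, and the end of the Bid window lies in the first exon of a longer GENCODE transcript of the gene.
Bcl2l1: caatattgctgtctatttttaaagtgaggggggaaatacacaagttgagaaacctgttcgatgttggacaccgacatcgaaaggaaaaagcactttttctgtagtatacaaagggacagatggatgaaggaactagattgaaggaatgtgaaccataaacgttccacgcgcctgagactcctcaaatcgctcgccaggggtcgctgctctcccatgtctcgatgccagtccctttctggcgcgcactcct
Bax: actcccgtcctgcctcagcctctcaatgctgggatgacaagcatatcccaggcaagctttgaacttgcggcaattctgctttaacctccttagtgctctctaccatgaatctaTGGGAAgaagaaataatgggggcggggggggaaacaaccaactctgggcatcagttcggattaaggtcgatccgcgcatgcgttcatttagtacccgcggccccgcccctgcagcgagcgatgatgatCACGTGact
Bid: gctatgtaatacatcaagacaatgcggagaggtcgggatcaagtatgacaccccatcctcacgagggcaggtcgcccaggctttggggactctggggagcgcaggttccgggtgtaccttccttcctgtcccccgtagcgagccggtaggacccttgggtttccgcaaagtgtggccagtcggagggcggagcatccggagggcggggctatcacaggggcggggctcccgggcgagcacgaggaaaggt
The Bax window held 1 CACGTG, 9 bases before the start, and 1 TGGGAA, 137 bases before it. The Bcl2l1 and Bid windows shown held 0 matches. An inner Bcl2l1 window, which lies in annotated exons of the gene and is not shown, held 1 AGGTCA. Searched on both strands, CACGTG was in 6.02% of 32851 promoters of this length, TGGGAA in 21.6%, AGGTCA in 14.0% and CAGCTG in 13.0%. Of the 15 windows found for 9 of the 10 genes, 2 held CACGTG (Bax and Bbc3), 3 held TGGGAA (1 of Bax and 2 of Bad), 1 held AGGTCA (Bcl2l1) and 0 held CAGCTG. These matches describe letters, not binding.

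Among the survival genes, Bcl2l1, which encodes Bcl-xL, showed the largest difference. Its log2 values in thymus ran from 5.85 to 6.44 (median 6.03), and in WT T-ALL from 2.59 in T-ALL 120 to 4.94 in T-ALL 7 (median 4.10). Every WT T-ALL sample was below every thymus sample. The difference was -2.06 (SE 0.28, limma adjusted p = 2.63e-06; exact permutation p = 5.16e-05, two-sided, the smallest that these 20 samples allow). In scaled RPKM the mean was 68.2 ± 11.4 (SD, n = 6) in thymus and 16.6 ± 6.54 (SD, n = 14) in WT T-ALL.

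Bcl2, the founding survival gene, is normally low in double-positive thymocytes and high before and after that stage. Its log2 values were 3.74 to 4.35 in thymus (median 4.14) and 1.31 to 3.95 in WT T-ALL (median 2.57). In 13 of 14 WT T-ALL samples it was below every thymus sample, T-ALL 48 being the exception, and T-ALL 4 was lowest. The difference was -1.38 (SE 0.29, limma adjusted p = 0.000357). The exons of Bcl2 overlap those of D630008O14Rik on the opposite strand, and whether the counting used strand was not given in the sources used here.

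Mcl1, a short-lived survival protein on which lymphocytes depend at most stages, fell least of the survival genes. Its log2 values were 6.77 to 7.20 in thymus (median 6.89) and 5.86 to 6.81 in WT T-ALL (median 6.29). T-ALL 120 was lowest and T-ALL 110 highest, the latter being the only sample of 14 within the thymus range. The difference was -0.63 (SE 0.12, limma adjusted p = 0.000161). This call was lost within set A (-0.60, limma adjusted p = 0.0589) and with the erythroid score in the fit (-0.62, limma adjusted p = 0.204). In 12 of 14 WT T-ALL samples all 3 survival genes were below every thymus sample.

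**Figure D1:**
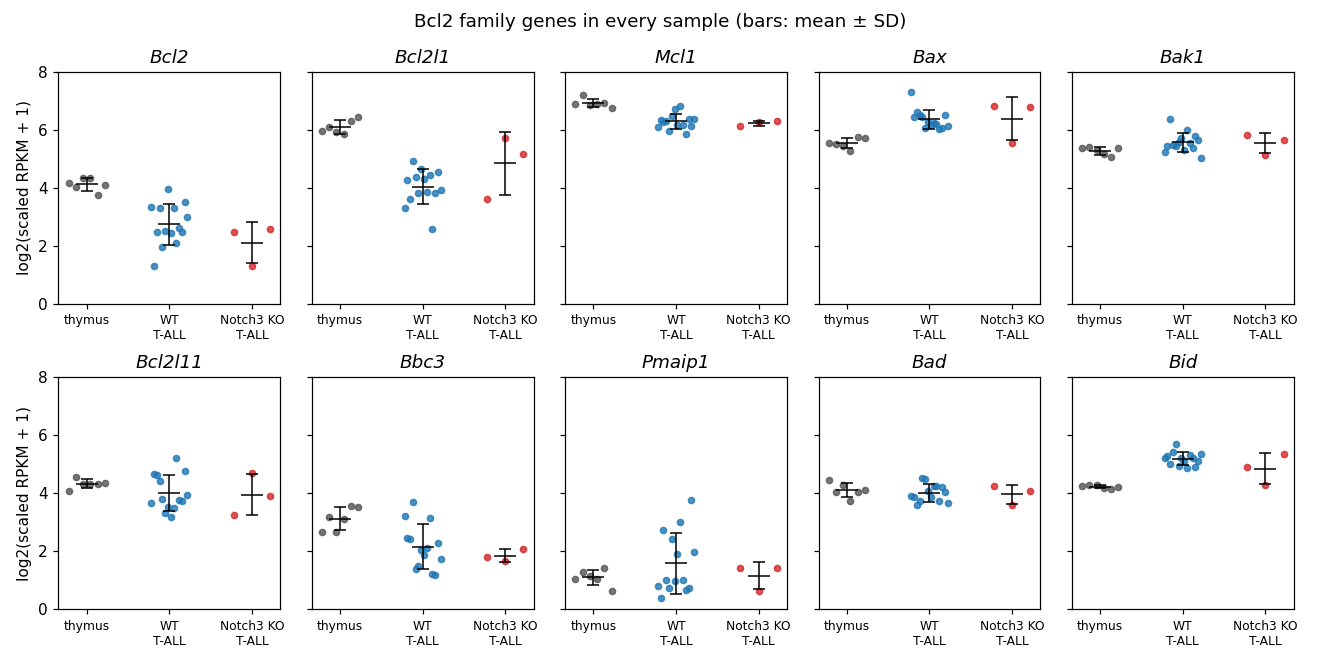
Log2(scaled RPKM + 1) of the 10 genes (y axis, 0 to 8) in thymus (grey, n = 6), WT T-ALL (blue, n = 14) and Notch3 KO T-ALL (red, n = 3); each point is a sample, and the horizontal mark with its bars is the mean ± SD. Bcl2l1, Bax and Bid separate WT T-ALL from thymus without overlap, and Pmaip1 spreads most among WT T-ALL, from 0.39 to 3.75.

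Because RPKM is per length, the levels of the 3 survival genes can be set against each other. Their summed scaled RPKM was 206 ± 13.7 (SD, n = 6) in thymus and 102 ± 19.3 (SD, n = 14) in WT T-ALL, with a range of 194 to 228 against 67.4 to 142 and no overlap. Mcl1 made up 58.8% ± 4.17 (SD, n = 6) of that sum in thymus and 77.6% ± 5.85 (SD, n = 14) in WT T-ALL, and the share of Bcl2l1 was 33.1% ± 4.65 in thymus and 16.2% ± 5.66 in WT T-ALL. Bcl2 was the smallest share in thymus, at 8.13% ± 1.69, and in WT T-ALL, at 6.20% ± 2.80. These shares were not tested, being sums of the values above. The lowest sum of all was in T-ALL 120, where Mcl1 was 84.9% of it.

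**Figure D2:**
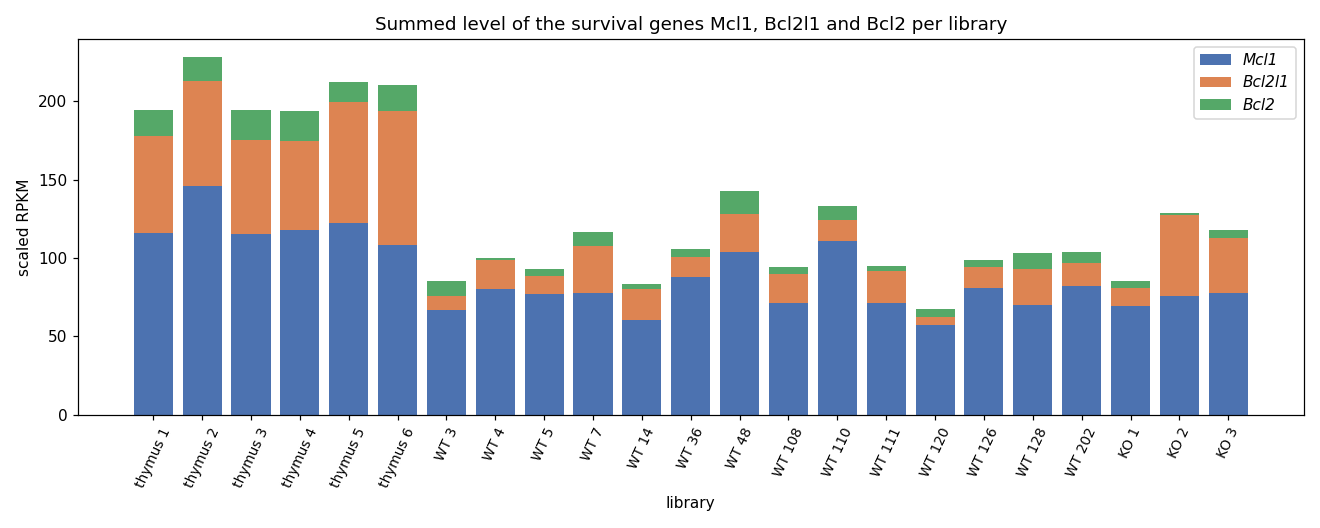
Scaled RPKM (y axis, from 0) of Mcl1 (blue), Bcl2l1 (orange) and Bcl2 (green), stacked, in each of the 23 samples (x axis). The 6 thymus bars stand at 194 to 228, above all 17 T-ALL bars, and the orange part makes up 29.2% to 40.8% of them.

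Of the effectors, Bax rose and Bak1 did not pass the test. Bax encodes the effector that moves from the cytosol to mitochondria, and is a known p53 target. Its log2 values were 5.26 to 5.77 in thymus (median 5.53) and 6.04 to 7.29 in WT T-ALL (median 6.26). All 14 WT T-ALL samples were above all 6 thymus samples, with T-ALL 3 highest. The difference was 0.82 (SE 0.17, limma adjusted p = 0.000494), and 0.74 without T-ALL 3. Within set A the call was lost (0.97, limma adjusted p = 0.11). Gm45808 shares exon sequence with Bax on the same strand. Bak1, the effector resident in the mitochondrial membrane, was at 5.06 to 5.40 in thymus (median 5.33) and 5.03 to 6.38 in WT T-ALL (median 5.51). T-ALL 5 was highest, 10 of 14 samples were above every thymus sample and 1 was below. The difference was 0.29 (95% interval -0.01 to 0.60, limma adjusted p = 0.0998), and the exact permutation test, unadjusted, gave p = 0.0317.

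The BH3-only genes moved in both directions. Bid, which links death receptors to mitochondria once caspase-8 has cut its protein, was at log2 values of 4.14 to 4.29 in thymus (median 4.23) and 4.85 to 5.69 in WT T-ALL (median 5.22). The groups did not overlap, and T-ALL 14 was highest. The difference was 0.96 (SE 0.13, limma adjusted p = 2.54e-06). Bcl2l13 overlaps its exons on the opposite strand. With Bcl2l1 and Bax, Bid made 3 of 10 genes whose groups did not overlap, against 15.1% of all genes. Both Bax and Bid were above every thymus sample in 14 of 14 WT T-ALL samples.

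Bbc3, which encodes the p53-induced protein Puma, fell. Its log2 values were 2.67 to 3.56 in thymus (median 3.14) and 1.18 to 3.70 in WT T-ALL (median 2.06). In 11 of 14 samples it was below every thymus sample, but T-ALL 7 was above them all, and T-ALL 3 and 111 were within the thymus range at 3.20 and 3.14. T-ALL 3 was below both thymus samples of its own set A, at 3.51 and 3.56. The difference was -0.96 (SE 0.30, limma adjusted p = 0.0109). Its call was lost within set A (-0.59, limma adjusted p = 0.276), with a neutrophil score in the fit (-0.71, limma adjusted p = 0.215) and with an erythroid score, where the sign turned (0.16, limma adjusted p = 0.919). Bax and Bbc3 are both p53 targets, and their differences were of opposite sign except with the erythroid score, while across the 14 WT T-ALL samples they were the most alike of the 45 pairs of members (Spearman rho 0.74, Pearson r 0.61). Without T-ALL 3 and 5, farthest from the median of Bax, r was 0.58, and in the 10 samples of set B rho was 0.60 and r was 0.33; set A holds too few for a value of its own. This is a description of samples that share host cells and the 2 sets, with no test.

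Bcl2l11, Pmaip1 and Bad did not pass the test. Bcl2l11, which encodes Bim, was at 4.06 to 4.55 in thymus (median 4.32) and 3.17 to 5.20 in WT T-ALL (median 3.78), with 9 of 14 samples below every thymus sample and 4 above (difference -0.32, 95% interval -0.84 to 0.21, limma adjusted p = 0.302). The WT T-ALL samples thus lay on both sides of thymus, and T-ALL 111 was highest. Pmaip1, which encodes Noxa, a partner chiefly of Mcl1, was at 0.63 to 1.41 in thymus (median 1.10) and 0.39 to 3.75 in WT T-ALL (median 1.00). T-ALL 128, 110, 5 and 36 stood highest, at 3.75, 3.01, 2.72 and 2.43, while the group's median was under that of thymus (difference in means 0.48, 95% interval -0.34 to 1.30, limma adjusted p = 0.313). Bad, whose protein is held inactive by growth factor signaling, was at 3.71 to 4.46 in thymus (median 4.07) and 3.59 to 4.52 in WT T-ALL (median 3.98), and the groups overlapped almost fully (difference -0.10, 95% interval -0.40 to 0.20, limma adjusted p = 0.593). Gpr137 overlaps exons of Bad, and Ggnbp1 those of Bak1, on the opposite strand.

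**Figure D3:**
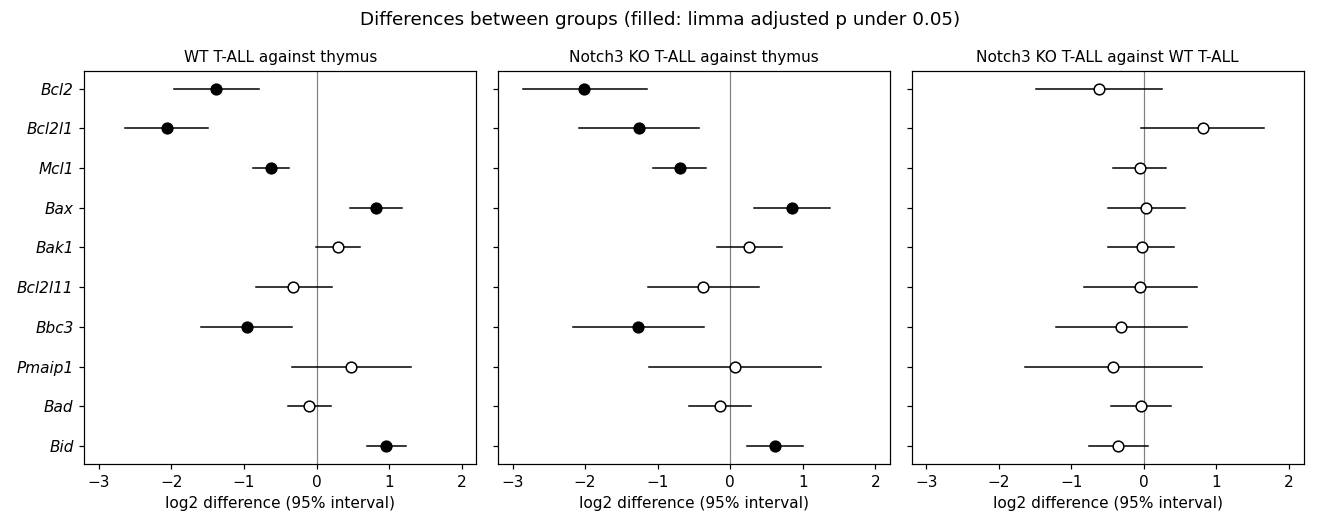
Log2 differences (x axis) of the 10 genes (rows) in WT T-ALL against thymus, Notch3 KO T-ALL against thymus and Notch3 KO T-ALL against WT T-ALL; points are the limma estimates, lines their 95% intervals, and filled points passed an adjusted p of 0.05. The first panels have 6 filled points each and the last has 0; its widest interval is that of Pmaip1, -1.64 to 0.80.

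Within the sets of samples split by Srsf4, Sco2 and Hnrnph3, the differences of the 6 called genes kept their sign. In set B, with 4 thymus and 10 WT T-ALL samples, all 6 passed limma's test again (42.7% of all genes did), at -1.43 for Bcl2, -1.93 for Bcl2l1, -0.65 for Mcl1, 0.78 for Bax, -1.07 for Bbc3 and 0.93 for Bid. In set A, with 2 thymus and 4 WT T-ALL samples, the same differences were -1.31, -2.33, -0.60, 0.97, -0.59 and 1.04, and Bcl2l1 and Bid passed (2 of 10, against 15.2% of all genes). With the set as a term in the fit, all 6 passed (53.5% of all genes).

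WT T-ALL samples differed more among themselves in some members than in others. Pmaip1 had an SD of 1.05 over the 14 samples, larger than that of 94.9% of the 11919 genes, and Bbc3 (0.78), Bcl2 (0.71), Bcl2l11 (0.62) and Bcl2l1 (0.61) were above 87.4%, 84.4%, 79.4% and 78.3% of genes. Bid, at 0.22, and Mcl1, at 0.26, were above 5.53% and 11.3%, so that the steadiest members were a death gene that rose and a survival gene that fell. The median SD of all genes was 0.41. In thymus the SDs of the 10 genes were 0.06 to 0.39. The Bbc3 values also lay by set. In set A, WT T-ALL 7, 3, 4 and 5 were at 3.70, 3.20, 2.45 and 2.42, while set B ran from 1.18 to 3.14. Thymus was at 3.51 and 3.56 in set A and at 2.67 to 3.19 in set B. The part of the sets in this spread was not tested.

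**Figure D4:**
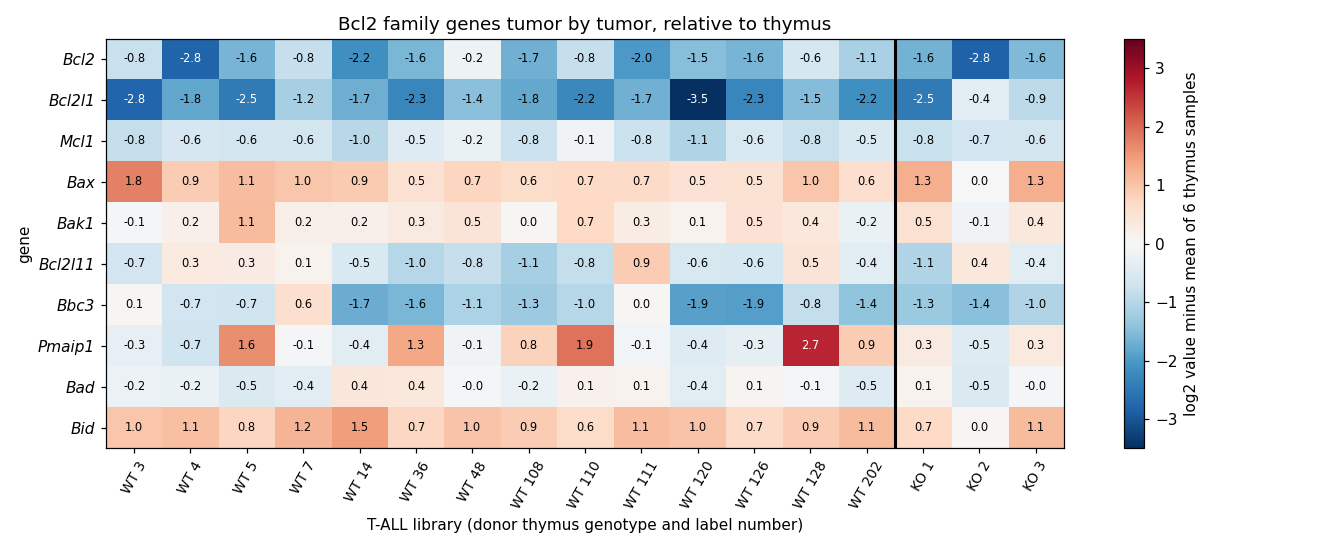
Log2 value minus the mean of the 6 thymus samples (color, red higher and blue lower, value printed in each cell) for the 10 genes (rows) in the 14 WT T-ALL and 3 Notch3 KO T-ALL samples (columns, split by the black line). The Bcl2, Bcl2l1 and Mcl1 rows are below 0 throughout, Bax and Bid are above 0 in all 14 WT T-ALL columns, and KO 2 is near 0 in both.

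Tumor by tumor, different genes stood lowest or highest. T-ALL 120 had the lowest Bcl2l1 (2.59) and Mcl1 (5.86) of the WT group, and a low Bbc3 (1.20). T-ALL 4 had the lowest Bcl2 (1.31) with Bcl2l1 at 4.27. T-ALL 48 had the highest Bcl2 (3.95) and the second highest Mcl1 (6.71). T-ALL 3 combined the highest Bax (7.29) with a low Bcl2l1 (3.32). The log2 ratio of Bax to Bcl2l1 in scaled RPKM was -0.56 ± 0.10 (SD, n = 6) in thymus and 2.41 ± 0.74 (SD, n = 14) in WT T-ALL, from 1.60 in T-ALL 7 to 4.11 in T-ALL 3. The log2 ratio of Bax to Bcl2 was 1.48 ± 0.41 in thymus and 3.88 ± 0.87 in WT T-ALL, lowest in T-ALL 48 (2.41) and highest in T-ALL 4 (5.85). T-ALL 110, with the second highest Pmaip1, also had the highest neutrophil marker sum, 84300, and the lowest T cell marker sum, 1550.

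For each member, the genes whose log2 values ordered the 14 WT T-ALL samples most alike were found among 10844 genes. Bax was ordered most like Phlda3 (Spearman rho 0.89), Pdap1 (0.87) and Zmat3 (0.86), and Phlda3 and Zmat3 were also on the list of p53 targets. Bcl2l1 was ordered most like Kcnj8 (0.82), Cdadc1 (0.82) and the death receptor gene Fas (0.81), Bcl2 like Pou5f2 (0.84), Xlr4c (0.82) and Trps1 (0.82), and Mcl1 like Fam102a (0.85), Rab19 (0.84) and Gcc1 (0.84). Bak1 was ordered most like Hcls1 (0.88), Was (0.85) and Pnpla2 (0.82), of which the first pair encodes proteins of the blood cell cytoskeleton. The BH3-only genes each had other partners, led by Rtkn2 for Bcl2l11 (0.91), Klf7 for Bbc3 (0.88), Ntng2 for Pmaip1 (0.92), Unc50 for Bad (0.91) and H2-Eb2 for Bid (0.91). These are the highest of very many values over 14 samples that also share host cells and the 2 sets, and are given as descriptions.

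Notch3 KO T-ALL, set against thymus, asks whether leukemia from a donor thymus without Notch3 shows the same genes. Of the 10 genes, 6 passed limma's test, 2 higher (Bax and Bid) and 4 lower (Bcl2, Bcl2l1, Mcl1 and Bbc3), against 37.5% of 11919 genes, 21.2% higher and 16.3% lower. The median difference was -0.26 over the 10 genes and 0.08 over all. The thymus samples are the same 6 as above, so the likeness of the 2 comparisons is no independent result.

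Bcl2 was at log2 values of 2.47, 1.30 and 2.57 in Notch3 KO T-ALL 1, 2 and 3, all below thymus (3.74 to 4.35), a difference of -2.01 (SE 0.41, limma adjusted p = 0.000642). Mcl1 was at 6.13, 6.26 and 6.30, all below thymus (6.77 to 7.20), a difference of -0.69 (SE 0.18, limma adjusted p = 0.00359). These 2 calls held when any 1 of the 23 samples was left out. With the erythroid score in the fit both were lost (limma adjusted p of 0.578 and 0.542), and within set A that of Bcl2 was lost (limma adjusted p = 0.0529). Bcl2l1 was at 3.63, 5.71 and 5.18, all below thymus (5.85 to 6.44), a difference of -1.26 (SE 0.40, limma adjusted p = 0.017). KO 1 was low and KO 2 came close to thymus, and without KO 1 the difference was -0.65 (limma adjusted p = 0.236). Bbc3 was at 1.81, 1.66 and 2.07, all below thymus (2.67 to 3.56), a difference of -1.27 (SE 0.44, limma adjusted p = 0.0262), with limma adjusted p-values of 0.0748, 0.078 and 0.0541 without KO 1, 2 and 3. These 4 of 10 genes did not overlap between the groups, against 42.3% of all genes.

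Bax was at 6.82, 5.55 and 6.80 in Notch3 KO T-ALL 1, 2 and 3 against 5.26 to 5.77 in thymus, a difference of 0.85 (SE 0.25, limma adjusted p = 0.0108). Bid was at 4.91, 4.27 and 5.34 against 4.14 to 4.29, a difference of 0.62 (SE 0.19, limma adjusted p = 0.0124). KO 1 and KO 3 were above thymus in both genes and KO 2 was within its range in both. Without KO 2 the differences were 1.27 and 0.90. Without KO 1 Bax stood at 0.64 (limma adjusted p = 0.0986) and Bid at 0.58 (limma adjusted p = 0.0533), and without KO 3 at 0.64 (limma adjusted p = 0.103) and 0.37 (limma adjusted p = 0.179). In exact permutation tests over the 9 samples, where p cannot go below 0.0238, both gave p = 0.0714, unadjusted.

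The remaining 4 genes had limma adjusted p-values of 0.355 (Bak1, difference 0.26), 0.444 (Bcl2l11, -0.37), 0.94 (Pmaip1, 0.07) and 0.621 (Bad, -0.14). Without KO 1 Bak1 stood at 0.12 and Bcl2l11 at -0.02, and without KO 2 they stood at 0.46 and -0.74. Bcl2l11 was at 3.26, 4.68 and 3.91, on both sides of thymus. Within set A, with 2 thymus and 3 Notch3 KO T-ALL samples, Mcl1 (-0.63) and Bbc3 (-1.69) passed, and Bcl2 (-1.81), Bcl2l1 (-1.53), Bax (0.65) and Bid (0.66) had limma adjusted p-values of 0.0529, 0.0881, 0.251 and 0.122. These 2 of 10 stand against 25.1% of all genes called within the set. Set B held 0 Notch3 KO T-ALL samples. With the set as a term 5 passed (40.4% of all genes), and Bax was at 0.56 (limma adjusted p = 0.0681).

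KO 2 stood apart from KO 1 and KO 3 in several of these genes, and in its other cells. It had the highest erythroid score of all samples (7.26, the mean log2 value of 8 erythroid markers), the lowest neutrophil marker sum of the T-ALL samples (202), and the highest sum of double-positive thymocyte markers among them (1160). Its summed survival genes were 129 in scaled RPKM, with Bcl2l1 at 39.9% and Bcl2 at 1.13%, against 85.1 in KO 1 with Bcl2l1 at 13.3%. The log2 ratio of Bax to Bcl2l1 was -0.16 in KO 2 and 3.30 in KO 1. The part of these cells in the values of KO 2 was not tested. With a neutrophil score in the fit (the mean log2 value of the neutrophil markers), Bcl2 and Mcl1 passed in Notch3 KO T-ALL against thymus and Bcl2l1, Bax, Bbc3 and Bid did not (differences of -1.08, 0.72, -1.06 and 0.55, limma adjusted p of 0.0833, 0.0689, 0.119 and 0.0629).

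**Figure D5:**
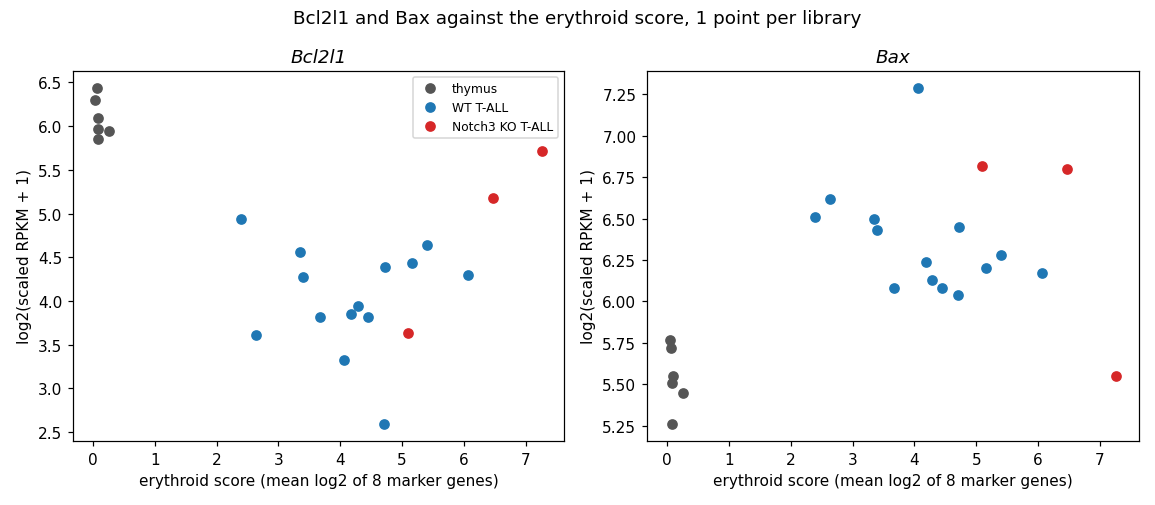
Log2(scaled RPKM + 1) of Bcl2l1 (left) and Bax (right) against the erythroid score (x axis, mean log2 value of 8 erythroid marker genes) in thymus (grey), WT T-ALL (blue) and Notch3 KO T-ALL (red), each point a sample. Thymus lies at scores of 0.04 to 0.26, apart from T-ALL at 2.39 to 7.26, and the red point at 7.26 is KO 2, with Bcl2l1 at 5.71 and Bax at 5.55; the y axes do not start at 0.

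Because erythroid markers differed between every T-ALL sample and thymus, their relation to the members was examined inside WT T-ALL alone. In a limma fit of the 14 samples on the erythroid score, 0 of the 10 genes passed, with 0 at an unadjusted p under 0.05, against 0.863% of 11476 genes. The steepest were Bbc3, at -0.31 log2 per unit of score (95% interval -0.69 to 0.07), Bcl2l11, at -0.28 (-0.57 to 0.02), and Pmaip1, at -0.28 (-0.82 to 0.27). Bcl2, Bcl2l1 and Mcl1 were at -0.03, -0.03 and -0.02, with intervals that reached from -0.41 to 0.35 at the widest. When the score was added to the fit of WT T-ALL against thymus, Bcl2l1 (-2.54), Bax (1.54, against 0.82 without the score) and Bid (1.03) passed and 3 calls were lost: Bcl2 stood at -1.02 (limma adjusted p = 0.389), Mcl1 at -0.62 (limma adjusted p = 0.204) and Bbc3 as given above. When it was added for Notch3 KO T-ALL against thymus, 0 passed, with Bcl2 at -1.45 (SE 1.00), Bcl2l1 at -1.99 (SE 0.96), Mcl1 at -0.67 (SE 0.43), Bax at 1.95 (SE 0.56), Bid at 0.72 (SE 0.46) and Bbc3 at 0.43 (SE 0.99). Since the score separates thymus from T-ALL, score and group cannot be told apart in these fits, which left 601 and 44 calls among all genes.

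Notch3 KO T-ALL against WT T-ALL compares donors without and with Notch3 among leukemias in the same host and organ. The strain of the knockout donors was not given. None of the 10 genes passed limma's test, 0 had an unadjusted p under 0.05 and 0 passed the exact permutation test, against 0.617% of 11677 genes called. The groups overlapped in all 10, against 0.437% of genes without overlap. The largest difference was that of Bcl2l1, at 3.63, 5.71 and 5.18 in KO 1, 2 and 3 against 2.59 to 4.94 (0.81, 95% interval -0.04 to 1.65, limma adjusted p = 0.624; exact permutation p = 0.0941, where the smallest possible is 0.00294). KO 2 and KO 3 were above all 14 WT T-ALL samples and KO 1 was near the group's low end. The difference was 1.41 without KO 1 and 0.37 without KO 2. KO 2 and KO 3 also had the highest erythroid scores, 7.26 and 6.47, against 5.09 in KO 1 and at most 6.06 in WT T-ALL. With the score in the fit the Bcl2l1 difference was 0.55 (limma adjusted p = 0.998). The part of erythroid cells in this difference was not tested. After Bcl2l1, Bcl2 followed at -0.62 (-1.49 to 0.25), then Pmaip1 at -0.42 (-1.64 to 0.80), Bid at -0.35 (-0.75 to 0.06) and Bbc3 at -0.31 (-1.21 to 0.60). These values also moved with single samples: without KO 2, Bcl2 stood at -0.21, Pmaip1 at -0.16 and Bid at -0.06, without KO 3 Bid stood at -0.60, and without WT T-ALL 7 Bbc3 stood at -0.19. The other 5 were within 0.06 of 0, with Bax at 0.03 (-0.49 to 0.56) and Mcl1 at -0.06 (-0.42 to 0.31). With 3 knockout samples the intervals are wide, and the narrowest is that of Mcl1.

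Within set A, the only set with Notch3 KO T-ALL, the comparison with WT T-ALL 3, 4, 5 and 7 likewise had 0 of 10 genes past limma's test, where 0.118% of all genes passed. The largest difference there was that of Bbc3, at -1.09 (limma adjusted p = 0.284), and WT T-ALL 3 and 7 had the highest Bbc3 values of their group (3.20 and 3.70). Bcl2l1 stood at 0.80 and Bax at -0.32.

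Other genes of cell death are given by list, and their counts are read against the 51.6% (29.3% higher, 22.3% lower) of all genes called in WT T-ALL and the 37.5% (21.2% and 16.3%) called in Notch3 KO T-ALL against thymus. A list's count is not a result about the list. Of 16 other Bcl2 family genes, 13 were tested, and in WT T-ALL against thymus 5 of 13 were called, a lower share than among all genes: 2 rose and 3 fell, with a median difference of 0.06 (0.08 over all genes). Bcl2l14 (1.13) and Bcl2l15 (1.06) rose, and the BH3-only gene Bmf (-1.52) and Bnip3 (-0.92) led the falls. In Notch3 KO T-ALL 3 of 13 were called, again a lower share: 2 rose, Bcl2l15 (1.45) and Bok (0.76), and 1 fell, Bmf (-1.40). The near-identical Bcl2a1 copies share reads and are uncertain.

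Of 17 genes for the apoptosome, caspases, their inhibitors and mitochondrial channels, 9 rose and 3 fell in WT T-ALL (12 of 17 called, against 51.6% of all genes), and 4 rose and 5 fell in Notch3 KO T-ALL (9 of 17, against 37.5%). The median differences were 0.34 and 0.25. Endog, a mitochondrial nuclease (0.98 and 1.40), and Htra2, a mitochondrial protease that counters caspase inhibitors (0.93 and 1.51), led the rises in both. Birc3, a gene of the inhibitor of apoptosis family (-1.09 and -1.52), and Casp6 (-0.90 and -1.30) led the falls.

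Of 9 death receptor genes, 8 were tested, and 1 rose and 4 fell in WT T-ALL (5 of 8 called, against 51.6% of all genes), with 1 and 3 in Notch3 KO T-ALL (4 of 8, against 37.5%). The median differences were -0.28 and -0.56. Fas fell most, from a mean log2 value of 5.87 ± 0.32 (SD, n = 6) in thymus to 2.82 ± 0.79 (SD, n = 14) with WT and 2.98 ± 1.23 (SD, n = 3) with Notch3 KO donors, differences of -3.05 (limma adjusted p = 2.87e-07) and -2.88 (limma adjusted p = 0.000134). Tnfrsf1a, the main receptor for TNF, fell in both (-1.32 and -1.20), and Ripk1, its adaptor kinase, rose (0.44 and 0.63).

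Of 10 p53 targets outside the family, 9 were tested. In WT T-ALL 1 rose and 3 fell (4 of 9 called, against 51.6% of all genes), and in Notch3 KO T-ALL 1 rose and 2 fell (3 of 9, against 37.5%), shares below those of all genes. Aen, an apoptosis-linked nuclease, rose by 0.57 and 0.75, while Trp53inp1 (-1.25 and -1.61) and Mdm2, the ubiquitin ligase that p53 induces against itself (-0.71 and -0.87), fell. Of 5 genes for the turnover of Mcl1 protein, 1 was called in each comparison with thymus. Fbxw7, a ubiquitin ligase subunit, fell in WT T-ALL (-0.71, limma adjusted p = 0.000431), and March5, a mitochondrial ubiquitin ligase, rose in Notch3 KO T-ALL (0.80, limma adjusted p = 0.0186). In Notch3 KO T-ALL against WT T-ALL, 0 genes of these 5 lists passed, against 0.617% of all genes.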

How the data were processed

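RNA of 23 mouse samples was sequenced from stranded mRNA libraries. The authors mapped 100-base paired reads to the mouse mm10 transcriptome (named in the labels) with the OSA aligner in ArrayStudio and deposited 1 table of log2(scaled RPKM + 1) values; whether strand was used in counting, the gene models and the aligner version were not given in the sources used here. The 75th percentile was 3.458 to 3.459 on the log2 scale in every sample. The methods give only 1 approximate read number for all libraries and the table holds no counts, so no counting interval is given. The columns were matched to samples by their titles; 27 gene symbols that had been turned into dates were restored, and no 2 columns were identical.

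Differences were fitted with limma 3.58.1 (R 4.3.3; lmFit, eBayes with trend and robust variance) on the log2 values, with an offset of 1 as deposited, for genes that reached a scaled RPKM of 1 in 3 or more fitted samples, and adjusted by Benjamini-Hochberg over all genes tested, with a threshold of 0.05. Differences on this scale understate the change of low genes. Both comparisons with thymus came from 1 fit of the 3 groups, and Notch3 KO against WT T-ALL from the T-ALL samples alone. Intervals are 95% intervals of limma's moderated statistic. Exact permutation tests (scipy 1.17.1) were two-sided on mean log2 values. On simulated data, with 200 genes changed, the fit recovered 92% of changes of 1 log2 unit in WT T-ALL against thymus. It recovered 65% in Notch3 KO T-ALL against thymus and 65% between the T-ALL groups. In the same order, 10, 11 and 7 unchanged genes were called. The recovery for the 10 members, at their own levels and spread, was not tested. Positions are GENCODE M21 on GRCm38.p6, and promoters are RefSeq.

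The genes and lists were chosen with earlier results of these data known. All 10 members are named; from each further list, the 2 largest rises and the 2 largest falls among genes past the threshold in each comparison; and the 3 genes with the highest Spearman rho to each member over the 14 WT T-ALL samples, predicted genes left out. Alternatives were the offset, the filter, the scaling, the samples in the fit, an erythroid or neutrophil score as covariate, the inferred set, the replicate number, the exact test and leaving out each sample. The neutrophil score was added after seeing the data. A fit by batch was planned for the case that a batch appeared, and the genes that split the samples, Srsf4, Sco2 and Hnrnph3, were chosen after seeing the data.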

Additional observations from a re-analysis of the deposited data

How the results depend on the processing

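The number of the 10 genes called stayed at 6 in WT T-ALL against thymus, 6 in Notch3 KO T-ALL against thymus and 0 between the T-ALL groups with offsets of 0.1 and 0.01, without the filter or with a filter at 5, with quantile normalization or median centring, and with other groups in or out of the fit. The share of all genes called ranged over these settings from 34.5% to 54.6%, from 26.7% to 48.9% and from 0.0171% to 2.13%, the first 2 being lowest without the filter. With the erythroid score as a covariate it moved to 3 (WT T-ALL against thymus; 5.04% of all genes called) and 0 (Notch3 KO T-ALL against thymus; 0.369%), with the neutrophil score to 5 (28.1%) and 2 (26.5%), and within set A, where 9 samples remained, to 2 (15.2%) and 2 (25.1%), so that fewer genes were called overall in each of these fits. The exact permutation test at an unadjusted p under 0.05, a looser rule than the adjusted one and run on the members alone, called 7, 4 and 0; the further call in WT T-ALL is Bak1.

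With each sample left out in turn, WT T-ALL against thymus stayed at 6 to 6 (45.7% to 53.3% of all genes called) and the T-ALL groups at 0 to 0 (0.0259% to 1.76%). Notch3 KO T-ALL against thymus ranged from 2 to 6, with 2 without KO 1 (27.6% of all genes called), 5 without KO 2 (36.2%) and 3 without KO 3 (24.1%), and the cause was not tested. All 230 gene values of the first comparison kept sign and call when 1 sample was left out.

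Signs reversed only among differences that did not pass under the alternative. In WT T-ALL against thymus, Bcl2l11 was at 0.25 and Bbc3 at 0.16 with the erythroid score, Bcl2l11 at 0.30 and Pmaip1 at -0.22 with the neutrophil score, and Bcl2l11 at 0.02 within set A. In Notch3 KO T-ALL against thymus, Pmaip1 was at -0.26 with quantile normalization, Bcl2l11 at 0.49 and Bbc3 at 0.43 with the erythroid score, Bcl2l11 at 0.13 and Pmaip1 at -0.52 with the neutrophil score, and Bad at 0.02 with the set as a term. Between the T-ALL groups, Bax was at -0.04 with quantile normalization, Bak1 at 0.25, Bcl2l11 at 0.24, Bbc3 at 0.26 and Pmaip1 at 0.17 with the erythroid score, Bad at 0.00 with the neutrophil score, and Bax at -0.32 and Bad at 0.19 with the set as a term and within set A. With 1 sample left out, Notch3 KO T-ALL against thymus ranged from -0.07 to 0.33 for Pmaip1 and from -0.27 to 0.04 for Bad, and the T-ALL groups from -0.18 to 0.45 for Bax, -0.17 to 0.16 for Bak1, -0.42 to 0.29 for Bcl2l11 and -0.17 to 0.14 for Bad. The cause of these reversals was not tested.

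Thymus shares the label numbers 3, 4 and 5 with WT T-ALL and 1, 2 and 3 with Notch3 KO T-ALL, and no label names a pairing. Same-numbered samples did not deviate together (correlations of -0.24 to 0.15). All but the pair numbered 5 span sets A and B, which were not removed, so these correlations cannot decide on a pairing. With the number as a replicate block, over 11 samples, 5 genes were called in WT T-ALL against thymus (26.6% of all genes), with Bbc3 lost at -0.43 (limma adjusted p = 0.327), and 3 in Notch3 KO T-ALL against thymus (32.0%), with Bcl2l1 at -1.07, Bax at 0.81 and Bid at 0.61 lost (limma adjusted p of 0.0582, 0.0515 and 0.0678). Between the T-ALL groups, no paired analysis was possible because they share only 1 number.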
